A study of Mus musculus with 44 samples.

Results

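Methylation of lysine 4 of histone H3 (H3K4) marks active promoters and enhancers, and in mammals it is written by the COMPASS family of complexes and removed in part by the KDM5 demethylases. Each COMPASS complex holds one large SET-domain methyltransferase, such as KMT2A, KMT2B, KMT2C or KMT2D, on a shared core of WDR5, RBBP5, ASH2L and DPY30. In the mouse, broad H3K4me3 domains that form in the growing oocyte are lost at the two-cell stage, when the embryo starts its own transcription (zygotic genome activation, ZGA). The small nuclear proteins DPPA2 and DPPA4 bind CpG-rich promoters in embryonic stem cells and are needed there for H3K4me3 at a class of developmental genes. The genes described here are therefore the writers and erasers of the mark, measured in two-cell embryos with and without Dppa2 and Dppa4.

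The set comprises 10 genes of the 35269 quantified in the study, chosen by name: the methyltransferases Kmt2a, Kmt2b, Kmt2c and Kmt2d, the core subunits Wdr5, Rbbp5, Ash2l and Dpy30, and the demethylases Kdm5a and Kdm5b. All 10 were found in the table, once each, and all 10 passed the filter on low values. Kmt2a passed it with 5 of 44 embryos above the lowest resolvable level, and each of the others with at least 38.

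The data are single-embryo RNA-seq of 44 two-cell embryos (E1.5) on a C57Bl/6 background, from natural matings, in 4 groups and 6 litters. The 14 Dppa2/4+/+ embryos came from control females and WT males (10 and 4 embryos in the 2 litters). The 15 Dppa2/4+/- embryos of +/+ sires (7 and 8) came from Dppa2/4 maternal knockout females, in which Zp3-Cre removes Dppa4 exon 2 through Dppa2 exon 7 in the growing oocyte, and WT males. Females of the same genotype crossed with Dppa2/4+/- males gave 5 Dppa2/4+/- embryos of +/- sires (4 and 1) and 10 Dppa2/4-/- embryos (3 and 7). The 3 groups from knockout females thus share the absence of a maternal Dppa2/4 copy. Both Dppa2/4+/- groups carry a wild-type paternal copy and differ in the genotype of the sire, and Dppa2/4-/- embryos lack the paternal copy as well. For the embryos of +/- sires the authors inferred the genotype from the transcripts of Dppa2 and Dppa4 themselves, so that the low level of both genes in Dppa2/4-/- embryos follows from the assignment. Embryos of these last 2 groups are littermates. The comparison addresses whether genome activation is disturbed when both proteins are missing. The other 4 litters each hold 1 group, and set against Dppa2/4+/+ embryos a genotype cannot be told apart from its litters.

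Levels are given as log2 RPM, RPM being a gene's reads per 1000000 reads of the embryo. They are shares of an embryo's reads, so that less of a transcript and more of all other RNA in an embryo cannot be told apart. Total reads ranged from 637704 to 3163026 in Dppa2/4+/+ embryos, 247667 to 1830316 in Dppa2/4+/- embryos of +/+ sires, 698469 to 2136068 in those of +/- sires and 418558 to 3048642 in Dppa2/4-/- embryos, so that the second group was the shallowest (median 528166 against 1770010 in the first). Genes without reads stand at a value that depends on depth, and for every test values below 1.86 log2 RPM, the level of no reads in the shallowest embryo, were set to 1.86. The Dppa2/4+/+ embryos had Dppa2 at 8.46 ± 0.55 log2 RPM (SD, n = 14), the Dppa2/4+/- embryos of +/+ sires had it at 6.47 ± 1.02 (n = 15), and 7 of 10 Dppa2/4-/- embryos had no Dppa2 read. One Dppa2/4+/- embryo of a +/- sire, the only one of its second litter, had Dppa2 at 8.88, inside the range of the Dppa2/4+/+ embryos (7.67 to 9.40), with Dppa4 at 5.77, below their lowest value of 6.33. Of the 14 Dppa2/4+/+ embryos, 2 stood apart, embryo j of the first litter and embryo k of the second. They had reads for 9403 and 9169 genes, against 10591 to 14199 in the other 12, in spite of 1367153 and 1065975 total reads, and 6 of the 9 genes other than Kmt2a had their lowest Dppa2/4+/+ value in one of them. Results without these 2 embryos are an alternative chosen after the data were seen. They are given where a call was lost, and for the 10 genes where a sign turned or a printed difference moved by over 1.5 times. All 6 listed two-cell genes (such as Zscan4d and Zfp352) and all 6 listed oocyte genes had reads in every group. The summed level of 8 cumulus and granulosa cell markers reached at most 24.9 RPM in any embryo, with Fshr without a read in all 44, and that of 3 blood markers reached at most 4.15 RPM.

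The deposited coordinates of the 10 genes (GRCm38) equal those of the protein-coding genes in the GENCODE annotation. Kmt2d lies on the reverse strand of chromosome 15 from 98831669 to 98871204, Dpy30 on the reverse strand of chromosome 17 from 74299474 to 74323944, and Kdm5a on the forward strand of chromosome 6 from 120364124 to 120444574. Reads were counted over exons without regard to strand. Exons of 3 of the 10 genes overlap those of another gene on the opposite strand, with 251 bp of Kdm5a shared with Ccdc77 (mean 4.12 log2 RPM), 274 bp of Kmt2c shared with Gm42585 (mean 3.30) and 378 bp of Kmt2a shared with AC061963.1 (mean -0.12). Reads in those stretches cannot be assigned to a strand, while Kmt2d and Dpy30 have no such overlap.

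KMT2A and KMT2B carry a CXXC domain that binds unmethylated CpG, and promoters of the set were therefore read for CpG content. RefSeq (GRCm38.p6) promoter windows of 300 bases, from 250 before to 50 after a gene's start, matched 7 of the 10 genes. The search was for the letters CG, which read the same on both strands, and 94.6% of all 32851 windows hold at least 1. The median over all windows was 7 CpG. Kmt2c had 56, Kmt2a 36, Kmt2d 27, Wdr5 22, Kdm5b 17 and Rbbp5 16. The window at the most upstream Dpy30 start held 1, while the 3 windows at starts further downstream in the same gene held 30 to 39. The 150 bases before the start are shown for Kmt2d and for 2 starts of Dpy30, the subunit genes that passed the test in one comparison of groups, 5′ to 3′ on the gene's strand with CG in capitals.

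Kmt2d, chr15:98871206-98871355, reverse strand: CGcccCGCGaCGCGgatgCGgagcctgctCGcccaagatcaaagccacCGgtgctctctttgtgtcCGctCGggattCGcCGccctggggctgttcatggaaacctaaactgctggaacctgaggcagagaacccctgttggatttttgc
Dpy30, upstream start, chr17:74323945-74324094, reverse strand: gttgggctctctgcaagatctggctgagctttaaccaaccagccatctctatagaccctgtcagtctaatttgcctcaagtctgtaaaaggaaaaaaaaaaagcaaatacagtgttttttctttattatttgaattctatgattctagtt
Dpy30, downstream start, chr17:74316434-74316583, reverse strand: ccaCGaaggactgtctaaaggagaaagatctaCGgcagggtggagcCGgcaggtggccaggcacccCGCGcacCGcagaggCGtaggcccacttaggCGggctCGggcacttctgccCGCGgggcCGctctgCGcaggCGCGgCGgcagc

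The Kmt2d stretch contains 12 CpG. The upstream Dpy30 stretch contains 0 and the downstream one 16. The deposited table gives 1 value per gene, so that the level of each Dpy30 start was not measured here.

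Per kilobase of exon, 2 core subunits and 3 enzymes made up the upper part of the set. Dpy30, which joins the core through ASH2L, had a median of 42.6 RPM per kb over the 44 embryos, and Wdr5, the WD40 scaffold of the core, 44.1. Dpy30 was the highest of the 10 in 24 embryos and Wdr5 in 14. Kmt2c and Kmt2d, the catalytic subunits of the complexes that monomethylate H3K4 at enhancers, followed with 33.3 and 20.5, and Kdm5b, which removes di- and trimethyl H3K4, with 25.1. Kdm5a stood at 9.45, Ash2l at 3.49, Rbbp5 at 2.50 and Kmt2b, a promoter-directed methyltransferase that acts in the oocyte, at 1.83. Kmt2a, the founding member of the family, had no read in 27 embryos and never more than 14 reads. The neighbours Dpy30 and Wdr5, as well as Ash2l, Rbbp5 and Kmt2b, had overlapping ranges over the embryos. Per kb of annotated exon the shared core was thus not even, with medians of Ash2l and Rbbp5 far below those of Wdr5 and Dpy30. Ash2l and Dpy30 had median reads of 35 and 65, over 8.969 and 1.146 kb of exon. Rbbp5 and Wdr5 had 11 and 154.5, over 3.93 and 3.596 kb. Exon lengths are of all annotated exons of a gene, so that a gene with unused exons is understated.

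**Figure D1:**
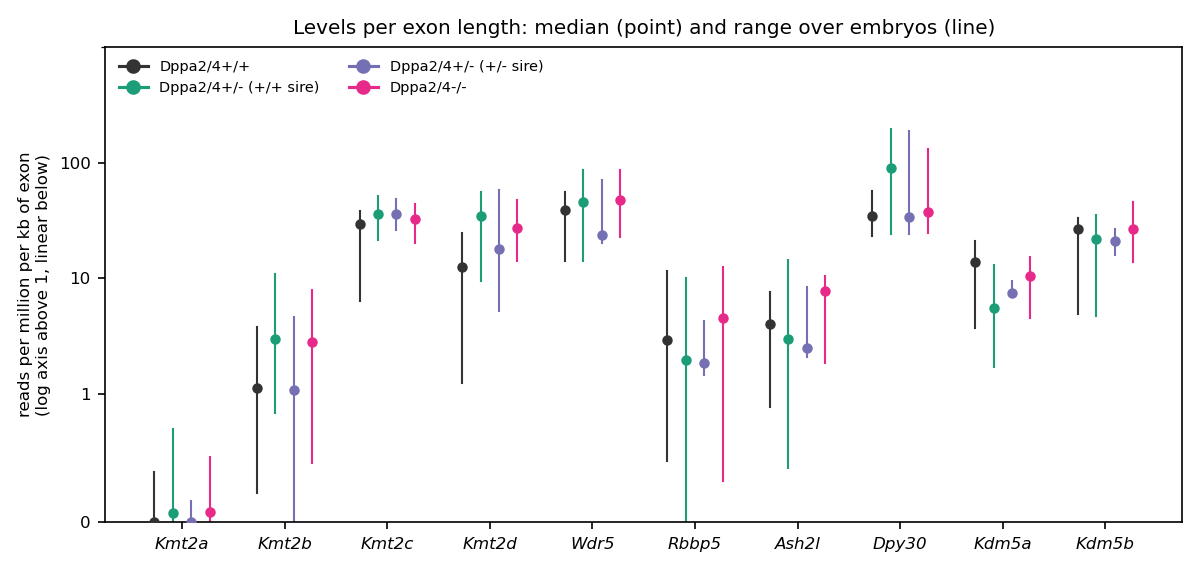
RPM per kb of annotated exon for the 10 genes, with the median (point) and the range over embryos (line) in each of the 4 groups; the axis is logarithmic above 1 and linear below. Kmt2a sits at or near 0 in every group, and Dpy30, Wdr5, Kmt2c, Kmt2d and Kdm5b form the upper part of the set.

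In the comparison of Dppa2/4+/- embryos of +/+ sires with Dppa2/4+/+ embryos, 3 of the 10 genes passed an adjusted p of 0.05 (limma, Benjamini-Hochberg over 13338 genes). Kmt2d rose 2.69-fold and Dpy30 rose 2.09-fold, and Kdm5a, a demethylase of di- and trimethyl H3K4, fell by 1.10 on the log2 scale, to 0.468 of the Dppa2/4+/+ level. Over all genes tested, 868 (6.51%) passed, 490 higher and 378 lower, and 368 higher and 685 lower when embryos were re-centred on their median. With litter taken as a random effect 0 of the 10 genes passed, 3 having an unadjusted p under 0.05, and Kmt2d, Dpy30 and Kdm5a stood at limma adjusted p = 0.38, 0.56 and 0.38. Without the second of the 2 litters all 3 calls were lost as well, with differences of 1.56 for Kmt2d, 0.22 for Dpy30 and -0.29 for Kdm5a. By limma voom on the recovered reads 4 of the 10 passed, these 3 and Kmt2a, beside 997 of 13338 genes (651 higher and 346 lower). Of the 6 listed oocyte genes, Ooep and Zp3 (named after their values were seen) were higher in the same comparison, by 1.20 and 1.14 (limma adjusted p = 0.034 and 0.040, or 0.59 and 0.54 with the random effect), with a list median of 0.94. Without embryo j neither passed (limma adjusted p = 0.057 and 0.078). By limma 0 of the 6 two-cell genes passed, 3 having an unadjusted p under 0.05, beside 2927 of 13338 genes. By limma voom 0 of the 6 two-cell genes and 1 of the 6 oocyte genes passed. The summed level of the oocyte genes ranged from 394.0 to 1703 RPM, against 209.9 to 2069 in Dppa2/4+/+ embryos, and its part in these differences was not tested. The median difference of the 10 genes was 0.24, against 0.10 over all genes tested.

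Kmt2d ranged from 4.64 to 8.94 log2 RPM in the 14 Dppa2/4+/+ embryos (median 7.97) and from 7.56 to 10.11 in the 15 Dppa2/4+/- embryos of +/+ sires (median 9.44). The groups overlapped, with 10 of 15 embryos above the highest Dppa2/4+/+ embryo and 14 of 15 above the Dppa2/4+/+ median. The difference was 1.43 (SE 0.34, 95% CI 0.75 to 2.11, adjusted p = 0.0066 by limma). The lowest Dppa2/4+/+ values, 4.64 and 5.61, were those of embryos j and k, and the other 12 ranged from 7.34 to 8.94. Without these 2 embryos the difference was 1.00 (limma adjusted p = 0.029). Litter means were 9.29 (SD 0.70, n = 7) and 9.05 (SD 0.87, n = 8), against 7.79 (SD 1.22, n = 10) and 7.58 (SD 1.41, n = 4) in the Dppa2/4+/+ litters. All 4 litter means thus separated by group, and the 2 litters of each group lay within 1 SD of each other. With litter as a random effect the difference was 1.46, and with log2 total reads as a covariate it was 1.03 (limma adjusted p = 0.24). Without the second litter it was 1.56 (limma adjusted p = 0.088), and without the first Dppa2/4+/+ litter 1.58 (limma adjusted p = 0.094).

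Dpy30 ranged from 4.73 to 6.02 log2 RPM in the Dppa2/4+/+ embryos (median 5.30) and from 4.79 to 7.81 in the Dppa2/4+/- embryos of +/+ sires (median 6.69). The difference was 1.07 (SE 0.32, 95% CI 0.43 to 1.70, adjusted p = 0.030 by limma). All 8 embryos of the second litter, at 6.62 to 7.81, lay above every Dppa2/4+/+ embryo, and the 7 of the first, at 4.79 to 6.96, overlapped them. Without the second litter the difference was 0.22 (limma adjusted p = 0.79), and without the first it was 1.81 (limma adjusted p = 8.8e-05). The 2 litters differed by 1.59 (SE 0.38, adjusted p = 0.0017 by limma). Without the first Dppa2/4+/+ litter the difference from the Dppa2/4+/+ embryos was 0.92 (limma adjusted p = 0.47). The call of Dpy30 was also lost after re-centring, where the difference was 0.88 (limma adjusted p = 0.084) and the median of all genes moved from 0.10 to -0.08. It was 0.75 with log2 total reads as a covariate (limma adjusted p = 0.38) and 1.01 with a random effect of litter (limma adjusted p = 0.56).

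Kdm5a showed the opposite course in the same embryos. It ranged from 5.72 to 8.22 log2 RPM in the Dppa2/4+/+ embryos (median 7.60) and from 4.61 to 7.53 in the Dppa2/4+/- embryos of +/+ sires (median 6.28), all 15 of which were below the Dppa2/4+/+ median. The difference was -1.10 (SE 0.26, 95% CI -1.62 to -0.58, adjusted p = 0.0064 by limma). The second litter, at 4.61 to 6.28, did not overlap the first, at 6.75 to 7.53, and the litters differed by -1.51 (SE 0.28, adjusted p = 0.00012 by limma). Without the second litter the difference from the Dppa2/4+/+ embryos was -0.29 (limma adjusted p = 0.57), and without the first Dppa2/4+/+ litter it was -0.72 (limma adjusted p = 0.49). With litter as a random effect it was -1.01 (limma adjusted p = 0.38), and with log2 total reads as a covariate -0.89 (limma adjusted p = 0.19).

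**Figure D2:**
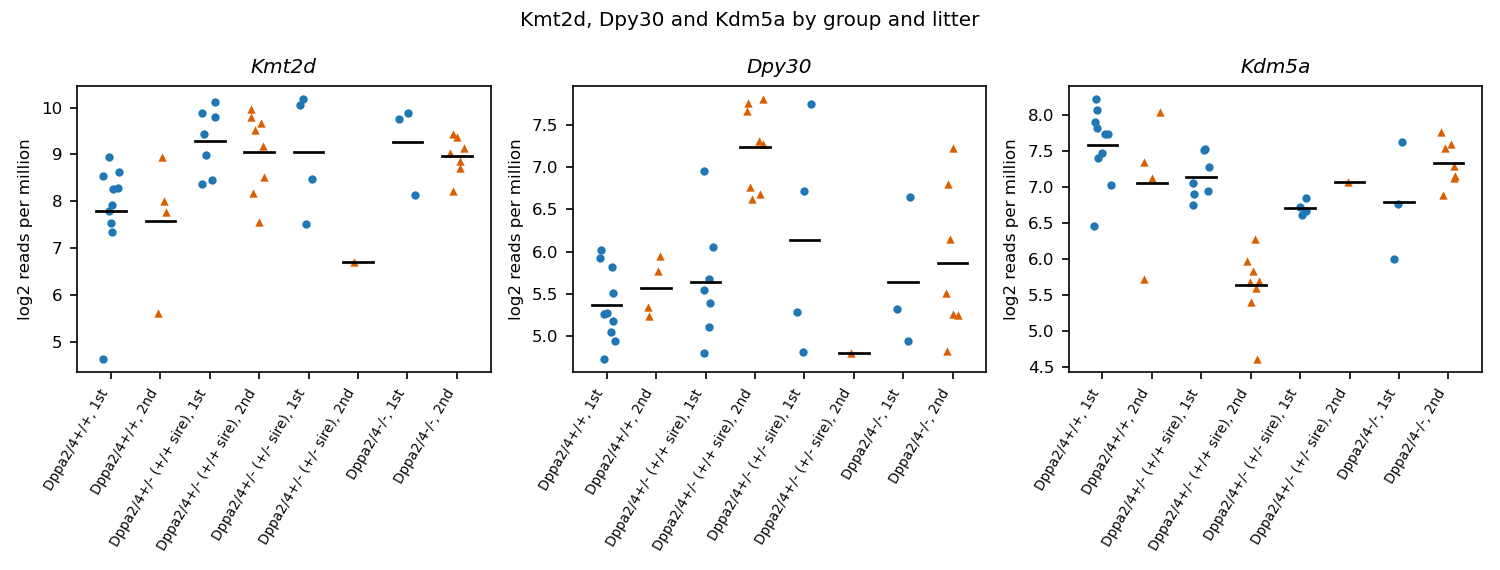
Log2 RPM of Kmt2d, Dpy30 and Kdm5a in each embryo (points), separated by group and litter, with the litter mean as a bar. The mean of Kmt2d is higher in both litters of Dppa2/4+/- embryos of +/+ sires than in the Dppa2/4+/+ litters. The second litter of the former lies below the first without overlap for Kdm5a (4.61 to 6.28 against 6.75 to 7.53). For Dpy30 it is higher with overlap (6.62 to 7.81 against 4.79 to 6.96).

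The litters of the Dppa2/4+/- embryos of +/+ sires differed in many genes. Of 13338 genes, 2920 (21.9%) passed between them (861 higher and 2059 lower in the second, or 1762 and 1242 after re-centring), so that 2 of 10 members is about the background share. Median total reads were 663861 in the first and 524828 in the second. Of the listed two-cell genes, 4 of 6 were higher in the second litter, their summed level ranging from 138.8 to 688.4 RPM against 37.7 to 262.1 in the first. Of the 6 oocyte genes, Ooep (1.51, limma adjusted p = 0.014) and Zar1 (1.79, limma adjusted p = 0.0074) were higher, both named after their values were seen, with a list median of 1.01 and a summed level of 509.9 to 1703 RPM against 394.0 to 952.0. By limma voom 3 of the 6 two-cell genes and 1 of the 6 oocyte genes passed between the litters. In the second litter Dppa2 fell by 1.56 and Dppa4 by 1.79 (limma adjusted p = 0.00028 and 0.00021). Ash2l (-1.33, limma adjusted p = 0.053) and Kdm5b (-0.72, limma adjusted p = 0.061) did not pass. In 3 alternatives another member passed, Kdm5b by limma voom (-0.92, adjusted p = 0.031), Ash2l with log2 total reads as a covariate (-1.37, limma adjusted p = 0.040) and Kmt2c after re-centring (0.76, limma adjusted p = 0.018). With log2 total reads as a covariate the litters differed by 1.57 in Dpy30 and -1.48 in Kdm5a (limma adjusted p = 0.0015 and 9.2e-05). The part of the two-cell and oocyte genes in these differences was not tested.

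The other 7 genes did not pass in the comparison of Dppa2/4+/- embryos of +/+ sires with Dppa2/4+/+ embryos. Kmt2b, at a median of 4.85 against 3.43 log2 RPM and 17 against 18.5 reads, differed by 1.09 (95% CI 0.17 to 2.00, limma adjusted p = 0.14). Kmt2c, at a median of 9.52 against 9.21, differed by 0.50 (95% CI 0.13 to 0.87, limma adjusted p = 0.092). Wdr5 differed by 0.30, Kmt2a by 0.18, Kdm5b by -0.17, Ash2l by -0.48 and Rbbp5, a WD40 subunit next to WDR5 in the core, by -0.52. The intervals of Ash2l (-1.26 to 0.31), Rbbp5 (-1.37 to 0.32) and Kmt2b each reached past a change of 1 on the log2 scale. Without Dppa2/4+/+ embryos j and k, Kmt2c differed by 0.33 and Kdm5b by -0.37 (limma adjusted p = 0.23 and 0.32). Kmt2c passed without the first litter of the cross (0.69, limma adjusted p = 0.025). Kmt2a passed with the deposited values taken without the common floor (1.50, limma adjusted p = 0.027) and by limma voom (2.03, adjusted p = 0.031). No Kmt2a read was found in 7 of 15 embryos of this group, where depth was lowest, and in 12 of 14 Dppa2/4+/+ embryos.

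**Figure D3:**
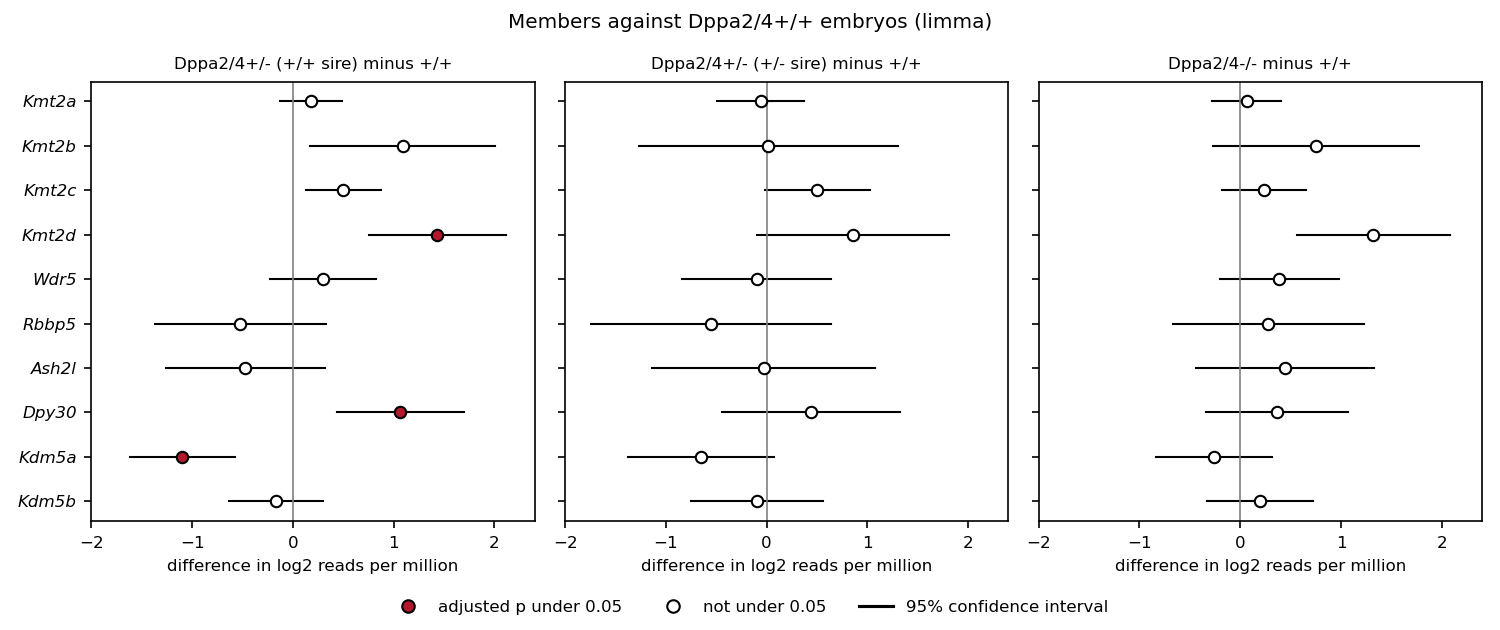
Difference in log2 RPM from Dppa2/4+/+ embryos for each of the 10 genes in the 3 other groups, with the 95% confidence interval (line); filled points have an adjusted p under 0.05. Kmt2d, Dpy30 and Kdm5a are filled in the Dppa2/4+/- embryos of +/+ sires and no gene is filled in the other panels, where Kmt2d in Dppa2/4-/- embryos has the largest difference (1.32).

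In Dppa2/4-/- embryos 0 of the 10 genes passed by limma, 1 had an unadjusted p under 0.05 and 0 passed by limma voom on the recovered reads. Over all genes tested, 6 (0.045%) passed, Dppa2 and Dppa4 among them, and 2202 of 13338 had an unadjusted p under 0.05. Kmt2d was the gene with the unadjusted p under 0.05. It ranged from 8.14 to 9.87 log2 RPM (median 9.08), and all 10 embryos lay above the Dppa2/4+/+ median, 6 of them above the highest Dppa2/4+/+ embryo. The difference was 1.32 (SE 0.38, 95% CI 0.56 to 2.08, limma adjusted p = 0.099), close in size to that in the Dppa2/4+/- embryos of +/+ sires, the 2 comparisons share the Dppa2/4+/+ embryos, and the difference between them was not tested. The litter means were 9.26 (n = 3) and 8.97 (n = 7). Without Dppa2/4+/+ embryos j and k the difference was 0.89 (limma adjusted p = 0.26).

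Of the other 9 genes in Dppa2/4-/- embryos, 8 had a difference above 0 and Kdm5a one below. Kmt2b differed by 0.75 (95% CI -0.27 to 1.78), Ash2l by 0.44 (-0.43 to 1.32) and Wdr5 by 0.39 (-0.20 to 0.98). Dpy30, with a median of 5.41, differed by 0.37 (-0.34 to 1.07), and Kdm5a, with a median of 7.22, by -0.26 (-0.84 to 0.32). Without Dppa2/4+/+ embryos j and k, Kdm5b turned from 0.20 to -0.01, Kmt2c moved from 0.24 to 0.07 and Kmt2b to 0.50, so that 8 of the 10 genes had a difference above 0 and 2 below. The median of the 10 differences was 0.32, against 0.17 over all genes tested. When embryos were re-centred on their median the median over all genes became -0.14, and with it the signs of Kmt2a, Kmt2c, Rbbp5 and Kdm5b turned while Kmt2d stood at 1.01.

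**Figure D4:**
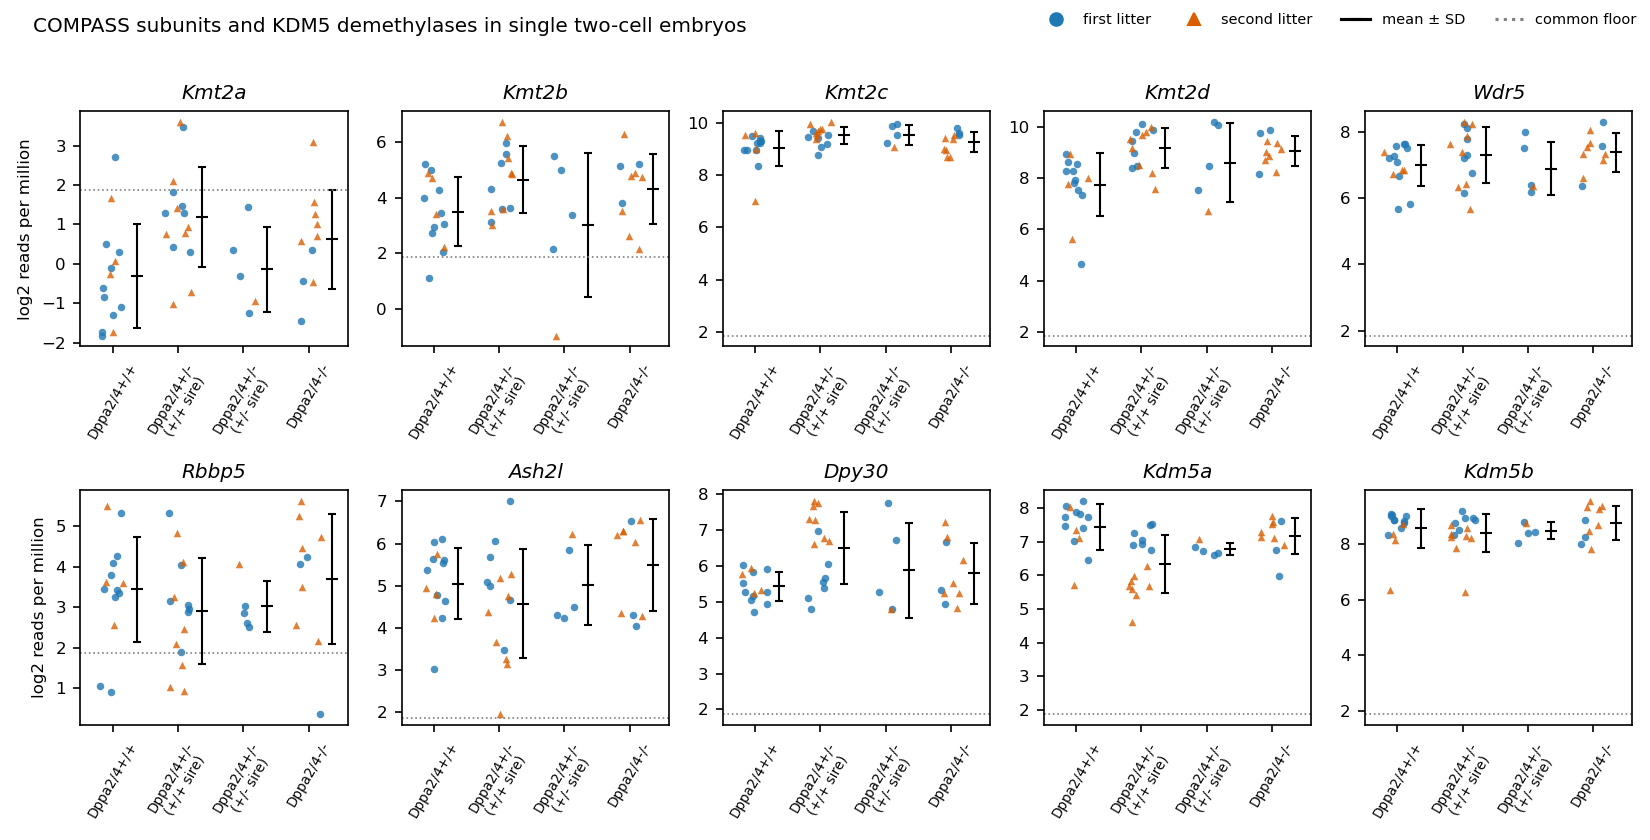
Log2 RPM of the 10 genes in every embryo, by group, with circles for the first and triangles for the second litter of a cross, the mean ± SD beside each group, and the common floor of 1.86 as a dotted line. Kmt2d has medians of 9.44, 8.48 and 9.08 in the groups from knockout females against 7.97 in Dppa2/4+/+ embryos, Kmt2a lies mostly under the floor, and all 10 genes overlap between the Dppa2/4+/+ embryos and each other group. Dpy30 has 10 of 15 Dppa2/4+/- embryos of +/+ sires above every Dppa2/4+/+ embryo, as Kmt2d does, and Kdm5a has 5 of them below every one.

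In the 5 Dppa2/4+/- embryos of +/- sires, 0 of the 10 genes passed by limma, 0 had an unadjusted p under 0.05, and 0 passed by limma voom. Over all genes tested, 5 (0.0375%) passed, namely Dppa2, Serinc1, Zfp813-ps, Gm14325 and Gm45205, the last 4 named after their values were seen. Kmt2d stood at 8.48, 7.52, 10.18 and 10.06 log2 RPM in the 4 embryos of the first litter and 6.70 in the 1 embryo of the second. Of these, 2 were above every Dppa2/4+/+ embryo, and 2, the embryo at 7.52 and that of the second litter, were below the Dppa2/4+/+ median. The difference was 0.86 (95% CI -0.10 to 1.81, limma adjusted p = 0.60), 1.33 without the second-litter embryo (limma adjusted p = 0.19) and 0.42 without Dppa2/4+/+ embryos j and k (limma adjusted p = 0.77). Dpy30 stood at 5.28, 4.81, 7.75, 6.72 and 4.80 in the same order, high in the 2 embryos in which Kmt2d was high. Kdm5a stood at 6.84, 6.66, 6.61, 6.72 and 7.07, all below the Dppa2/4+/+ median of 7.60, with a difference of -0.65 (95% CI -1.38 to 0.07). Without Dppa2/4+/+ embryos j and k, Kmt2c moved from 0.50 to 0.33, Kdm5b from -0.10 to -0.30, Ash2l from -0.03 to -0.14, Wdr5 from -0.10 to -0.16, and Kmt2b turned from 0.02 to -0.23. The second-litter embryo, with 1725669 total reads, had no Kmt2b read, which allows a level of up to 1.74 RPM, while the other 4 had 5 to 49.

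The litters of Dppa2/4+/- males allow Dppa2/4-/- and Dppa2/4+/- embryos to be compared within a litter, the groups being set by the inferred paternal copy. Median total reads of the Dppa2/4+/- and Dppa2/4-/- embryos were 1105921 and 1203546 in the first litter. In the second they were 1725669, from 1 embryo, and 673837. With litter in the model, 0 of 10 genes passed by limma, 0 had an unadjusted p under 0.05 and 0 passed by limma voom. Over all genes tested, 2 (0.015%) passed, Dppa2 and Dppa4, on which the genotypes were assigned. Kmt2d differed by 0.90 (95% CI -0.22 to 2.02), Kmt2b by 1.24 (-0.47 to 2.95) and Wdr5 by 0.59 (-0.26 to 1.44). Without the single Dppa2/4+/- embryo of the second litter, embryo e, the differences were 0.20, 0.71 and 0.38. Kmt2c differed by 0.02 (-0.42 to 0.46) and Kdm5b by 0.04 (-0.60 to 0.69), the former being the narrowest interval among the well-expressed members. The intervals of Dpy30 (-1.26 to 1.32), Ash2l (-1.23 to 1.21) and Rbbp5 (-1.06 to 1.88) were too wide to exclude a 2-fold change in either direction. How far this difference itself differs between the 2 litters rests on the single Dppa2/4+/- embryo of the second litter, whose spread is taken from the other embryos, and is given as a value only, for Kmt2d 2.07 (95% CI -0.12 to 4.26).

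Litter by litter, the 10 genes were not equally stable. The 6 litters accounted for 67.1% of the variance of Kdm5a over the 44 embryos and 47.6% of that of Dpy30, against a median of 21.8% over all genes tested. Kmt2c (34.8%), Kdm5b (34.1%), Kmt2d (30.8%) and Ash2l (27.9%) lay above that median, and Rbbp5 (15.1%), Kmt2b (14.0%), Kmt2a (5.44%) and Wdr5 (3.57%) below. For Kmt2d the 4 groups alone accounted for 30.1%, nearly as much as the 6 litters, whereas for Kdm5b they accounted for 4.69%. Between the 2 Dppa2/4+/+ litters, 0 of 10 genes passed by limma or limma voom, with 234 of all genes (1.75%) passing by limma. An unadjusted p under 0.05 was held by 1 of 10 (Kdm5b), beside 1959 of 13338 genes. Kdm5b averaged 8.85 (SD 0.24, n = 10) in the first and 7.90 (SD 1.06, n = 4) in the second, a difference of -0.94 (limma adjusted p = 0.12). Embryo k, at 6.35, was the lowest of the second litter, and without it the difference was -0.43 (limma adjusted p = 0.88) and the genes passing became 49. Without embryos j and k the litter difference turned sign for Kmt2d (-0.21 to 0.10), Kmt2c (-0.33 to 0.24) and Rbbp5 (0.35 to -0.23). Between the litters of Dppa2/4+/- males, 0 of 10 passed by limma, with 687 of all genes (5.15%) passing. An unadjusted p under 0.05 was held by 1 (Kmt2c, -0.57, limma adjusted p = 0.10), beside 3031 of 13338 genes. By limma voom 1 (Kmt2c) passed, beside 1147 genes.

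Within litters the members did not vary as one group. With each value taken from its litter mean, the correlation over the 44 embryos had a median of 0.23 over the 36 pairs of the 9 genes other than Kmt2a. The highest values were between Kmt2d and Wdr5 (Pearson 0.72, Spearman 0.74), Kmt2c and Kdm5b (0.68 and 0.71) and Kmt2b and Kmt2d (0.64 and 0.62). Kmt2c and Kdm5a (0.61 and 0.51), Kdm5a and Kdm5b (0.58 and 0.43) and Kmt2b and Kdm5b (0.56 and 0.56) came next. Without Dppa2/4+/+ embryos j and k the Pearson value of Kmt2d and Wdr5 was 0.84, that of Kmt2b and Kmt2d 0.61, that of Kmt2c and Kdm5b 0.50 and that of Kmt2c and Kdm5a 0.43, with a median of 0.38 over the 36 pairs. Dpy30 and Kdm5a had the lowest value (-0.06). All embryos share a probe set and the points of a litter share their mean. Embryos with fewer reads tended to have higher Kmt2b (-0.48 with log2 total reads within litters), Wdr5 (-0.44) and Kmt2d (-0.31), while Kdm5a (0.26) and Kmt2c (0.09) were the members with a value above 0, and the part of depth in these correlations was not tested.

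The order of the 2 enhancer methyltransferases was also counted per embryo, and its difference between groups was not tested. Kmt2c exceeded Kmt2d per kb of exon in 13 of 14 Dppa2/4+/+ embryos, 10 of 15 Dppa2/4+/- embryos of +/+ sires, 3 of 5 of +/- sires and 5 of 10 Dppa2/4-/- embryos, as a description of the same values as above. Kmt2d exceeded Kmt2b per kb in all 44 embryos, and Kdm5b exceeded Kdm5a in 43.

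The wider pathway was read from 4 lists of 37 genes, all of which were tested. Of 14 other COMPASS subunits, 1 passed in Dppa2/4+/- embryos of +/+ sires against Dppa2/4+/+ embryos, Bod1l, a partner of SETD1A, which fell by 0.93 (limma adjusted p = 0.024), beside 6.51% of all genes. The call was lost with litter as a random effect (limma adjusted p = 0.54) and without Dppa2/4+/+ embryo j (limma adjusted p = 0.053). In this list 7 genes had an unadjusted p under 0.05, beside 2927 of 13338 genes, and 1 passed by limma voom, beside 997. Of the list of 4 other demethylases with the cofactor Rcor1, 3 other methyltransferases and 15 H3K4 methylation readers, 0 passed there by limma, with 1, 0 and 5 at an unadjusted p under 0.05 and 0 by limma voom. In Dppa2/4-/- embryos, in Dppa2/4+/- embryos of +/- sires and within the shared litters, 0 of 37 passed by limma or limma voom. An unadjusted p under 0.05 was held by 7, 3 and 1 of them, beside 2202, 1202 and 641 of 13338 genes. In Dppa2/4-/- embryos the median difference was 0.43 in the COMPASS list, 0.48 among the readers, -0.31 among the other demethylases with Rcor1 and -0.09 among the other methyltransferases, against 0.17 over all genes.

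Between the litters of Dppa2/4+/- embryos of +/+ sires, 5 of the 37 genes were higher and 7 lower in the second, where 21.9% of all genes passed. By limma voom 10 of the 37 passed, beside 2177 of 13338 genes. Kdm6a, the H3K27 demethylase of the KMT2C and KMT2D complexes, rose by 1.75 (limma adjusted p = 4.3e-05), and Psip1, a chromatin reader that joins KMT2A complexes, rose by 0.96 (limma adjusted p = 0.0019). Bod1l fell by 1.64 (limma adjusted p = 6.5e-06). The demethylase Kdm1b, which acts on H3K4 in the oocyte, rose by 0.98 (limma adjusted p = 0.0050), and the cofactor Rcor1 fell by 0.98 (limma adjusted p = 0.0061). Among the readers Spin1 rose by 1.59 (limma adjusted p = 3.5e-05), and Ing4 and Dido1 fell by 2.68 and 1.23 (limma adjusted p = 6.2e-05 and 0.0085). In the litters of Dppa2/4+/- males 2 of 37 passed, beside 5.15% of all genes, and in the Dppa2/4+/+ litters 2 of 37, beside 1.75%. By limma voom 4 of 37 passed in the former and 5 of 37 in the latter, beside 1147 and 674 of 13338 genes. In the former, in which 2 of 6 two-cell and 1 of 6 oocyte genes were lower in the second litter, the second litter had higher Kdm1a (4.29-fold, limma adjusted p = 0.027) and lower Spin1 (-1.24, limma adjusted p = 0.015) than the first. In the Dppa2/4+/+ litters, Ncoa6, a KMT2C and KMT2D partner named after its value was seen, was higher by 0.99 in the second, and Ing4 fell by 2.08 (limma adjusted p = 0.031 and 0.034). Without Dppa2/4+/+ embryo k both calls were lost, at 0.78 and -1.80 (limma adjusted p = 0.37 and 0.30).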

How the data were processed

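Single-embryo RNA-seq of 44 two-cell embryos was analysed. Per the labels, libraries were made by Smart-seq2 from individual embryos, and the labels gave group and litter. The authors trimmed reads (Trim Galore 0.6.5, cutadapt 2.3), mapped them to GRCm38 with HISAT2 2.1.0, dropped those with a MAPQ under 20 and counted both strands over mRNA probes in SeqMonk. They deposited log2 RPM, in which a gene without reads holds the value of 0.9 read. Whole reads were recovered for 99.999% of the other values (within 0.05 read). About 3 reads are needed to tell a gene from 0, which covers counting error only.

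Values were floored at 1.86 log2 RPM, genes above it in at least 5 embryos were kept (13338 genes), and differences were tested with limma 3.58.1 (trend) in R 4.3.3, with Benjamini-Hochberg adjustment at 0.05. The 4 groups formed 1 model, and litter was a term for the embryos of Dppa2/4+/- males. The paper's text and figure legends do not name the test behind its differential expression. With 2 litters per cross, p-values measure the spread between embryos, not between litters. The members, pathway lists and marker lists were chosen with earlier results of these data known. All 10 members are named in every comparison, and up to 3 called genes of each pathway list by smallest adjusted p. Sums, shares and figures used pandas 2.3.3, numpy 2.4.6 and matplotlib 3.10.9. Alternatives covered the floor, a pseudocount of 1, filters, scaling, limma voom, depth, litter, the replicate block, and litters or embryos left out (2 Dppa2/4+/+ embryos after the data were seen).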

Additional observations from a re-analysis of the deposited data

Results flagged for a closer look

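For the 10 genes in the 2 groups of 4 to 10 embryos, 19 sets of floored values were read for an embryo far from the others by Dixon's ratio, the gap of the extreme embryo divided by the range. One was found, Kmt2a in Dppa2/4-/- embryo h of the second litter, at 3.09 log2 RPM from 7 reads. The other 9 embryos were all set to the floor of 1.86, so that the ratio of 1.0 follows from the floor. On the deposited values the ratio was 0.34, under the critical value, and embryo e of the same group had more Kmt2a reads (9, at 1.56 log2 RPM). Chance alone sets apart about 1 group in 20, and Kmt2a was not called in this group.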

How the results depend on the processing

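The 10 genes were compared with Dppa2/4+/+ embryos, within the shared litters and between litters under 910 alternative values in all. Of these, 889 stayed on the same side of the threshold, 14 lost a call and 7 gained one, and no called difference changed sign. Of these, 93 values changed sign with neither value called, the largest being Kmt2d in Dppa2/4+/- embryos of +/- sires, at 0.86, which became -1.04 with the second-litter embryo alone, on the assumption that it varies like the other groups.

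In Dppa2/4+/- embryos of +/+ sires, the 3 genes called became 0 with log2 total reads as a covariate, 0 with litter as a random effect, and 0 to 4 when a litter was left out (0 without the second litter of this cross or the first Dppa2/4+/+ litter). Kmt2d and Kdm5a were called in 12 of 16 alternatives each, with adjusted p from 0.0026 to 0.38 and from 4.2e-06 to 0.57, and Dpy30 in 10, with 8.8e-05 to 0.79. Litter and depth limit these calls most. Over all genes, 868 calls there became 1792 without the common floor and 0 with either the covariate or the random effect, with 1706 and 1010 genes at an unadjusted p under 0.05, and 5 to 2563 with a litter left out (5 without the second litter of this cross, 136 without the first Dppa2/4+/+ litter, 2563 without the first of this cross).

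In Dppa2/4-/- embryos the 6 genes called became 10 without the floor, 3 with a mean of at least 0, 3 without a filter, 2 with the covariate, 2 with the random effect, and 4 to 132 with a litter left out (124 without the first litter of this cross, 10 without the second and 132 without the first Dppa2/4+/+ litter). In Dppa2/4+/- embryos of +/- sires the 5 genes called became 2 without the floor, 1 on log2(RPM + 1), 3 without a filter, 1 after re-centring, 8 with limma voom, 0 with the random effect, and 1 to 57 with a litter or embryo left out (57 without embryo e). Within the shared litters 2 became 1 in the first litter alone and 2 to 4 without an embryo. Between litters, 234 calls in Dppa2/4+/+ embryos became 419 with a mean of at least 0, 393 without a filter and 674 with limma voom, and 687 in the litters of Dppa2/4+/- males became 1073 without the floor and 1147 with limma voom, where 1 of the 10 genes was called. Leaving out Dppa2/4+/+ embryo j, embryo k or both was chosen after the data were seen. It kept Kmt2d, Dpy30 and Kdm5a called in Dppa2/4+/- embryos of +/+ sires, where 574 to 1020 genes were called (574 without j). It gave 3 to 6 in Dppa2/4-/- embryos (3 without j), 1 to 6 in Dppa2/4+/- embryos of +/- sires (1 without j and 1 without both) and 41 to 210 between the Dppa2/4+/+ litters (49 without k, 41 without both). The cause of these changes was not tested.

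The mating number as a replicate block gave 12 genes called in Dppa2/4-/- embryos, 745 in Dppa2/4+/- embryos of +/+ sires and 6 in those of +/- sires, with 0, 2 and 0 of the 10 genes, Dpy30 being lost (adjusted p = 0.068). The numbers are not known to pair the litters, whose differences correlated over 6919 genes at 0.45, -0.44 and -0.76 between crosses. With no replicate block in the shared litters, 2 genes and 0 of the 10 were called.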
